A study of Homo sapiens with 12 samples.

Results

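A group of 40 genes of glucose breakdown and of the response to low oxygen was followed in 2 human breast cancer cell lines. They were chosen by name as 16 glycolytic enzymes, 4 regulators of glycolytic flux, 4 glucose and lactate transporters, 12 further targets of the hypoxia-inducible factors (HIF) and 4 HIF subunits and hydroxylases. Of these, 37 were found among the 19775 genes that had a probe set annotated to 1 symbol, and each was read from its probe set with the highest mean over the 12 arrays. The lactate transporters SLC16A1 and SLC16A3 and the carbonic anhydrase CA9 were not analysed here.

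The arrays were 12 Affymetrix HG-U133 Plus 2.0 arrays of total RNA from Hs578T and BT-20, both established breast cancer lines grown in MEM with serum. Every culture was exposed for 24 h to an oligonucleotide at 200 nM together with the liposomal reagent DOTAP, so oligonucleotide and lipid were common to all groups. CDH13 M and CDH13 U, the methylated and unmethylated forms of a duplex from exon 1 of CDH13, had 2 arrays each in each line, named set 1 and set 2 and labelled as biological replicates. The CpG oligonucleotide ODN 2006 and its control ODN 2006 CTL, which has GpC in place of CpG, had 1 array each in each line and no set number. Untreated and lipid-only cultures were not analysed here, all cells of a group came from 1 line, and the labels name no low-oxygen culture.

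The agents are shown because the M and U comparison turns on methylation of the CpG cytosines alone. Capitals mark CpG, M carries a methyl group on the cytosine of each CpG of both strands, and all are written 5′ to 3′.
ODN 2006: tCGtCGttttgtCGttttgtCGtt
ODN 2006 CTL: tgctgcttttgtgcttttgtgctt
CDH13 U: tCGgatCGccCGgcaCGggcagggtgaggg
CDH13 U complementary strand: ccctcaccctgccCGtgcCGggCGatcCGa
ODN 2006 and each CDH13 strand held 4 CpG, and ODN 2006 CTL held 0.

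Glycolysis turns glucose into pyruvate through a chain of cytosolic enzymes, most of which exist as several isoenzymes encoded by separate genes. When oxygen is low, the prolyl hydroxylases of the EGLN family no longer mark HIF1A and EPAS1 (HIF-2 alpha) for destruction, and the HIF proteins pair with ARNT and raise transcription of glycolytic genes, glucose transporters, angiogenic factors and mitophagy genes. HIF activity is controlled mainly at the level of the protein, which these arrays did not measure.

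The values were log2 GCRMA values, and the median of each array lay between 3.01 and 3.08. A value of 5 was taken as the working limit between dim and clearly measured probe sets. It is no detection call, as the files give none. Of the 37 members, 27 were at 5 or above in all 12 arrays, 8 in some, and ALDOC and the glucose transporter SLC2A3 in none. The lines were set apart by marker lists. All 10 epithelial markers were higher in BT-20 and all 10 mesenchymal markers higher in Hs578T without overlap, with summed log2 values of 121.02 to 122.95 in BT-20 and 41.33 to 43.13 in Hs578T for the former and 58.93 to 62.36 and 124.74 to 127.54 for the latter. Their part in the results below was not tested. The arrays were of whole cultures, in which fewer expressing cells and less RNA per cell cannot be told apart. As nothing beyond the labels says how separate the cultures were, p-values measure the spread between these arrays.

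Most members differed between the lines, and most of the HIF targets among them were higher in Hs578T. In the 8 M and U arrays, 34 members were tested, and 21 were higher and 6 lower in Hs578T at an adjusted p under 0.05 (limma, Benjamini-Hochberg over 10410 genes). Of all genes tested, 34.4% were higher and 40.2% lower, 74.6% in all, so that the lines differed at most genes and the total of 27 members was close to that background. The directions were less even among the members. Their median log2 difference, Hs578T minus BT-20, was 0.74, against -0.09 over all genes, and 26 of 34 were above 0, against 46.3% of all genes. Members such as LDHB, CA12 and PFKM passed the filter only through Hs578T, so the adjusted p given for each below adds nothing to its values. Of the 27 members at 5 or above in all 8 arrays, 15 were higher and 5 lower, with a median of 0.54, against 30.7% and 39.2% of such genes. As M and U of a set deviated together, the line was also tested on the mean of M and U per set, 2 a line. Then 25 members passed, against 65.8% of all genes, with HIF1A and LDHA lost. Over all 12 arrays, 20 of 35 members had every Hs578T array above every BT-20 array and 6 had the reverse, against 29.1% and 35.9% of all genes. The 20 include LDHB, PFKM, CA12 and ANKRD37, and the 6 include EGLN3. Each of these passed the filter only through the line in which it was high.

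**Figure D1:**
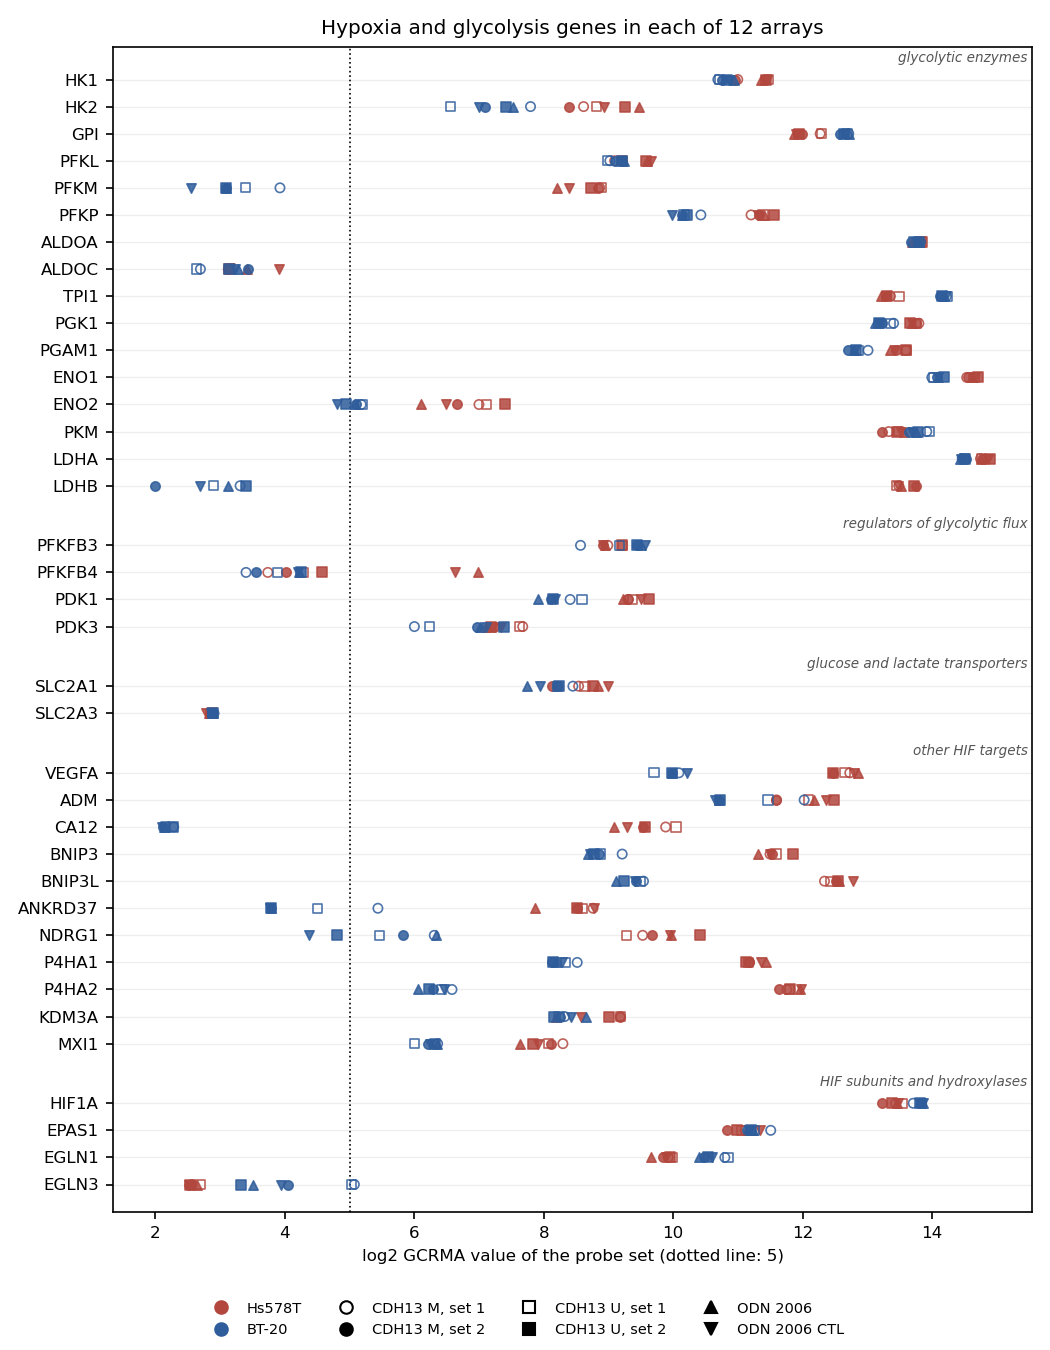
Log2 GCRMA value of each of the 37 members (rows, by role) in each of the 12 arrays, with Hs578T in red and BT-20 in blue, symbols for oligonucleotide and set, and a dotted line at 5. For 20 of the 35 members tested over these arrays, all 6 red points lie to the right of all 6 blue points, among them most HIF targets. This held for 29.1% of all genes. LDHB, PFKM, CA12 and ANKRD37 are among the 20 and passed the filter only through Hs578T.

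Of the 15 glycolytic enzymes tested, 10 were higher in Hs578T and 3 lower, with a median difference of 0.47, against 34.4% and 40.2% of all genes. The total of 86.7% compares with 74.6% of all genes. PFKM and LDHB entered only through Hs578T. Of the 12 enzymes at 5 or above in all 8 arrays, 7 were higher and 3 lower, with a median of 0.375. Of all genes at that level, 30.7% were higher and 39.2% lower. The differences were small at most steps and large at a few isoenzymes. In what follows, 4 values of a line are those of M and U of set 1 and then of M and U of set 2, all on the log2 scale.

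Hexokinases trap glucose in the cell by phosphorylating it. HK1 was at 11.00, 11.47, 10.95 and 11.44 in Hs578T and at 10.69, 10.71, 10.75 and 10.83 in BT-20. The groups did not overlap, and the difference was 0.47 (SE 0.08, adjusted p = 0.00199). HK2, the isoform known as hypoxia-inducible, was at 8.62, 8.82, 8.39 and 9.25 in Hs578T and at 7.80, 6.56, 7.10 and 7.41 in BT-20. All Hs578T arrays lay above all BT-20 arrays. The difference was 1.55 (SE 0.25, adjusted p = 0.00109), a 2.93-fold change. It rested on the probe set used. The 2 other HK2 probe sets that reached 5 went the opposite way, by -1.09 and -0.75, and the mean of the HK2 probe sets gave -0.10.

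Phosphofructokinase commits glucose carbon to glycolysis and is built from the muscle (PFKM), platelet (PFKP) and liver (PFKL) forms. PFKM was at 8.86, 8.89, 8.84 and 8.73 in Hs578T but at 3.93, 3.40, 3.09 and 3.09 in BT-20. It was thus clearly measured in 1 line and under 5 in every M and U array of the other. With the BT-20 values set to 5, PFKM was at least 14.2-fold higher in Hs578T (measured difference 5.45, SE 0.19, adjusted p = 6.81e-07). PFKP was at 11.20, 11.39, 11.32 and 11.56 in Hs578T and at 10.43, 10.17, 10.13 and 10.22 in BT-20, a difference of 1.13 (SE 0.11, adjusted p = 8.08e-05). PFKL ran from 9.10 to 9.59 in Hs578T and from 8.98 to 9.20 in BT-20, and its difference of 0.20 did not pass (adjusted p = 0.176, 95% interval -0.09 to 0.48).

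The other steps follow in the order of the pathway. The aldolase ALDOA lay between 13.68 and 13.85 in all 12 arrays, with a difference of 0.06 (95% interval -0.15 to 0.27, adjusted p = 0.55). PGK1, PGAM1 and ENO1, which carry carbon from bisphosphoglycerate to phosphoenolpyruvate, were higher in Hs578T by 0.45, 0.71 and 0.54. GPI, TPI1 and the pyruvate kinase gene PKM were lower, by differences of -0.53, -0.82 and -0.45 with adjusted p of 0.00623, 0.000184 and 0.0062. In TPI1, which interconverts the triose phosphates, the Hs578T values of 13.36, 13.49, 13.28 and 13.30 all lay under the BT-20 values of 14.22, 14.24, 14.13 and 14.15. The ALDOA and LDHB probe sets carry the x_at suffix, whose probes can match related transcripts.

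ENO2, the neuronal enolase and a known HIF target, was at 7.00, 7.12, 6.66 and 7.40 in Hs578T and at 5.18, 5.20, 5.10 and 4.94 in BT-20. The difference was 1.94 (SE 0.13, adjusted p = 1.48e-05), 3.83-fold, with no overlap between the lines.

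The lactate dehydrogenase genes stood furthest apart. LDHA, whose product favours lactate formation, was at 14.75, 14.77, 14.78 and 14.90 in Hs578T and at 14.46, 14.50, 14.52 and 14.50 in BT-20. The lines did not overlap and differed by 0.30 (SE 0.08, adjusted p = 0.0153). This small call was lost after centring on housekeeping genes (0.13, adjusted p = 0.211), after quantile normalization (adjusted p = 0.0525) and on set means (adjusted p = 0.0842). LDHB, whose product favours lactate oxidation, was at 13.48, 13.45, 13.76 and 13.72 in Hs578T and at 3.31, 2.90, 1.99 and 3.39 in BT-20. Against BT-20 values set to 5 it was at least 389-fold higher in Hs578T (measured difference 10.70, SE 0.29, adjusted p = 1.94e-07), and the 4 ODN arrays gave 10.59. The other LDHB probe set differed by 11.87. LDHB was the member with the largest difference between the lines.

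The promoters of the LDH genes are shown because both lie upstream of genes of the same enzyme and only LDHA is counted among HIF targets. The windows hold the 250 bases before the RefSeq start site on GRCh38.p14, that of LDHA at chr11:18394313-18394562 on the plus strand and that of LDHB at chr12:21657843-21658092 on the minus strand. Capitals mark the letters ACGTG or GCGTG, the core recognised by HIF, on either strand.
LDHA: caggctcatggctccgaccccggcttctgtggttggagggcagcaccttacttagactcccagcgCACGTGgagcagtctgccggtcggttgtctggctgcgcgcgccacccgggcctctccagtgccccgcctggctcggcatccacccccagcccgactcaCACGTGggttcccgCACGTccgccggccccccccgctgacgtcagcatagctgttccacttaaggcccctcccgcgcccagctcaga
LDHB: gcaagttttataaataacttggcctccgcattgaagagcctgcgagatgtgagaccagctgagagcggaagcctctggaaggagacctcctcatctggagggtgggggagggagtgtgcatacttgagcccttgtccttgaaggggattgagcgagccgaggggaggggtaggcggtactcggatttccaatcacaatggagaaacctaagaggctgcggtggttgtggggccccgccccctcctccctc
The LDHA window held 5 matches to ACGTG, where each CACGTG counts on both strands, and the LDHB window held 0. Neither window says anything about HIF binding in these cells.

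Regulators of glycolytic flux were read next. PDK1 and PDK3 encode kinases that block the entry of pyruvate into the mitochondrial citrate cycle. PDK1 was at 9.30, 9.37, 9.30 and 9.63 in Hs578T and at 8.41, 8.59, 8.11 and 8.14 in BT-20, a difference of 1.09 (SE 0.14, adjusted p = 0.000397) with no overlap. PDK3 was at 7.67, 7.62, 7.23 and 7.18 in Hs578T and at 6.002, 6.23, 6.97 and 7.38 in BT-20. The BT-20 values of set 2 overlapped those of Hs578T. Its difference of 0.78 did not pass (adjusted p = 0.0654) but did with set as a block, which leaves out the spread between sets (adjusted p = 0.000322), and it was 1.53 in set 1 and 0.03 in set 2. PFKFB3 and PFKFB4 set the level of a fructose bisphosphate that activates phosphofructokinase. PFKFB3 differed by -0.07 (95% interval -0.54 to 0.39), and PFKFB4 was under 5 in all 8 arrays and was not tested in them. The glucose transporter SLC2A1 (GLUT1), a textbook HIF target, was at 8.54, 8.64, 8.13 and 8.75 in Hs578T and at 8.45, 8.21, 8.20 and 8.24 in BT-20, with a difference of 0.24 (adjusted p = 0.122). The ranges overlapped in these arrays. In the 4 ODN arrays SLC2A1 was at 8.83 and 8.99 in Hs578T and at 7.75 and 7.94 in BT-20, a difference of 1.07.

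The other HIF targets were the most one-sided group. Of 11 tested, 10 were higher in Hs578T and 0 lower, against 34.4% and 40.2% of all genes. Their median difference was 2.88, and ADM was the exception. CA12 and ANKRD37 passed the filter only through Hs578T. Of the 8 that were at 5 or above in all 8 arrays, 7 were higher, against 30.7% of all genes at that level. The count of 10 held under housekeeping centring, quantile normalization and each probe set choice tried.

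VEGFA, the main angiogenic growth factor, was at 12.73, 12.65, 12.48 and 12.46 in Hs578T and at 10.09, 9.70, 9.98 and 9.98 in BT-20. The lines were well apart, by 2.64 (SE 0.12, adjusted p = 2.01e-06), 6.25-fold. ADM, the vasodilator adrenomedullin, was at 11.60, 12.08, 11.59 and 12.48 in Hs578T and at 12.02, 11.46, 10.71 and 10.73 in BT-20. The lines overlapped in set 1 but not in set 2, and the difference of 0.71 did not pass (SE 0.31, adjusted p = 0.0773). The difference was 0.10 in set 1 and 1.32 in set 2. With set as a block, a fit that leaves out the spread between sets, it passed (adjusted p = 0.00408).

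CA12, a membrane carbonic anhydrase, was at 9.88, 10.04, 9.53 and 9.57 in Hs578T and between 2.12 and 2.28 in BT-20. Against BT-20 values set to 5 it was at least 27.0-fold higher in Hs578T (measured difference 7.55, SE 0.15, adjusted p = 3.92e-08).

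BNIP3 and BNIP3L are mitophagy receptors of the outer mitochondrial membrane. BNIP3 was at 11.50, 11.59, 11.53 and 11.85 in Hs578T and at 9.21, 8.87, 8.85 and 8.78 in BT-20, a difference of 2.69 (SE 0.12, adjusted p = 2.09e-06). BNIP3L was at 12.34, 12.43, 12.52 and 12.54 in Hs578T and at 9.54, 9.49, 9.43 and 9.24 in BT-20, a difference of 3.03 (SE 0.10, adjusted p = 6e-07). Both were several-fold higher in every Hs578T array.

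P4HA1 and P4HA2 encode the catalytic subunits of collagen prolyl 4-hydroxylase, which stabilises collagen. P4HA1 was at 11.18, 11.16, 11.17 and 11.13 in Hs578T and at 8.52, 8.33, 8.13 and 8.15 in BT-20, 2.88 apart (SE 0.12, adjusted p = 1.32e-06). P4HA2 was at 11.75, 11.80, 11.63 and 11.80 in Hs578T and at 6.58, 6.42, 6.29 and 6.23 in BT-20, 5.37 apart (SE 0.11, adjusted p = 4.66e-08). P4HA2 had the largest difference among members clearly measured in both lines, at 41.3-fold.

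ANKRD37, an ankyrin repeat protein with few known roles beyond its strong induction by HIF, was at 8.76, 8.60, 8.51 and 8.51 in Hs578T and at 5.44, 4.51, 3.78 and 3.78 in BT-20. Of the BT-20 arrays 3 were under 5. The difference was 4.22 (SE 0.36, adjusted p = 5.27e-05), and 3.49 with values under 5 set to 5. NDRG1, a stress-responsive gene of differentiation and metastasis suppression, was at 9.53, 9.27, 9.67 and 10.41 in Hs578T and at 6.31, 5.46, 5.83 and 4.80 in BT-20. The lines did not overlap, and the difference was 4.12 (SE 0.28, adjusted p = 1.77e-05). MXI1, a MYC antagonist, was at 8.30, 8.07, 8.12 and 7.83 in Hs578T and at 6.36, 6.002, 6.21 and 6.31 in BT-20, 1.86 higher in Hs578T (SE 0.12, adjusted p = 1.27e-05).

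KDM3A, a histone demethylase, was at 9.18, 9.18, 9.18 and 9.01 in Hs578T and at 8.32, 8.24, 8.25 and 8.17 in BT-20, a difference of 0.89 (SE 0.09, adjusted p = 0.000107). In the ODN arrays the order was not kept. KDM3A was then at 8.19 and 8.57 in Hs578T and at 8.65 and 8.42 in BT-20, a difference of -0.15.

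Promoters of 4 HIF targets that were higher in Hs578T are shown with the same capitals, for the 250 bases before the start site on GRCh38.p14. The windows lay at chr4:185396591-185396840 on the plus strand (ANKRD37), chr10:131981924-131982173 on the minus strand (BNIP3), chr10:73096867-73097116 on the minus strand (P4HA1) and chr5:132227092-132227341 on the minus strand (P4HA2). The P4HA2 window lies inside the outer span of the gene.
ANKRD37: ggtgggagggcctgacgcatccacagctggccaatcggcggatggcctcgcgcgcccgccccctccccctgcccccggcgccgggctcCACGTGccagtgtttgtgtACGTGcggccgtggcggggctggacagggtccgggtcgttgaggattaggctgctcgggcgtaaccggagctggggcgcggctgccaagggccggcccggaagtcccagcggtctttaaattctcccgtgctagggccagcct
BNIP3: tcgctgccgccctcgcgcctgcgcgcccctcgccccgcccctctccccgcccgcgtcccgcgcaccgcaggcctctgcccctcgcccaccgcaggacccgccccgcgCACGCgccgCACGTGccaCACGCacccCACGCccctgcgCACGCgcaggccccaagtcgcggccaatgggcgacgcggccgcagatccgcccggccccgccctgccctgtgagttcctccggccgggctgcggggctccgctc
P4HA1: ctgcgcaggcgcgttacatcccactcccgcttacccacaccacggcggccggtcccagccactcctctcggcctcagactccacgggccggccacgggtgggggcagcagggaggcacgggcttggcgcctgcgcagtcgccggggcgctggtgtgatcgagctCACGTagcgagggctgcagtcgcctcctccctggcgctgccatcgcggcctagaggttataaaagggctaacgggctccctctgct
P4HA2: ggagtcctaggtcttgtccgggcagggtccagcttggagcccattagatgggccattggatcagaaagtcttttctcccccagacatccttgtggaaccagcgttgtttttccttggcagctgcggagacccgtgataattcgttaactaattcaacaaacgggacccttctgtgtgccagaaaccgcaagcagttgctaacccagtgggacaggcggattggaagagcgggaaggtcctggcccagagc
ANKRD37 held 3 matches to ACGTG, BNIP3 held 2 to ACGTG and 4 to GCGTG, P4HA1 held 1 to ACGTG, and P4HA2 held 0 of either. So P4HA2, with the largest fold of the 4, had no match in this window.

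Over 35 members with a window used here, 22 held ACGTG or GCGTG on either strand (62.9%), against 43.2% of all 35116 promoter windows of the same length. For ACGTG alone the shares were 37.1% and 18.5%, and GCGTG was in 14 of the 35 windows, against 32.2% of all. The members were reduced to a single window per gene, while the background was not reduced in this way. Among 9 other HIF targets with a window, 7 held either motif. These genes were named partly as known HIF targets, so the shares only describe the letters.

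The HIF subunits and hydroxylases did not share the direction of the targets. Of 4 tested, 0 were higher and 3 lower in Hs578T, against 40.2% of all genes lower. EGLN3 entered only through the BT-20 arrays in which it was high, and of the 3 at 5 or above in all 8 arrays 2 were lower, against 39.2%. HIF1A was at 13.44, 13.54, 13.22 and 13.38 in Hs578T and at 13.71, 13.84, 13.83 and 13.82 in BT-20, a difference of -0.40 (SE 0.10, adjusted p = 0.0082) with no overlap. The call was lost on set means (adjusted p = 0.0503). EPAS1 was at 11.11, 11.05, 10.84 and 10.98 in Hs578T and at 11.51, 11.26, 11.13 and 11.21 in BT-20. Its difference of -0.28 did not pass (adjusted p = 0.072) but did with set as a block (adjusted p = 0.0375). EGLN1, the main oxygen-sensing prolyl hydroxylase and itself a HIF target, was at 9.92, 9.98, 9.83 and 9.96 in Hs578T and at 10.80, 10.85, 10.47 and 10.54 in BT-20, a difference of -0.74 (SE 0.12, adjusted p = 0.00117). EGLN3, a hydroxylase known for strong hypoxic induction, was at 2.52 to 2.70 in Hs578T and at 5.07, 5.03, 4.06 and 3.33 in BT-20. Only the BT-20 arrays of set 1 reached 5. The difference of -1.79 (SE 0.39, adjusted p = 0.00517) fell to -0.03 with values under 5 set to 5, so EGLN3 gives no measured fold. None of these transcripts reads HIF protein.

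**Figure D2:**
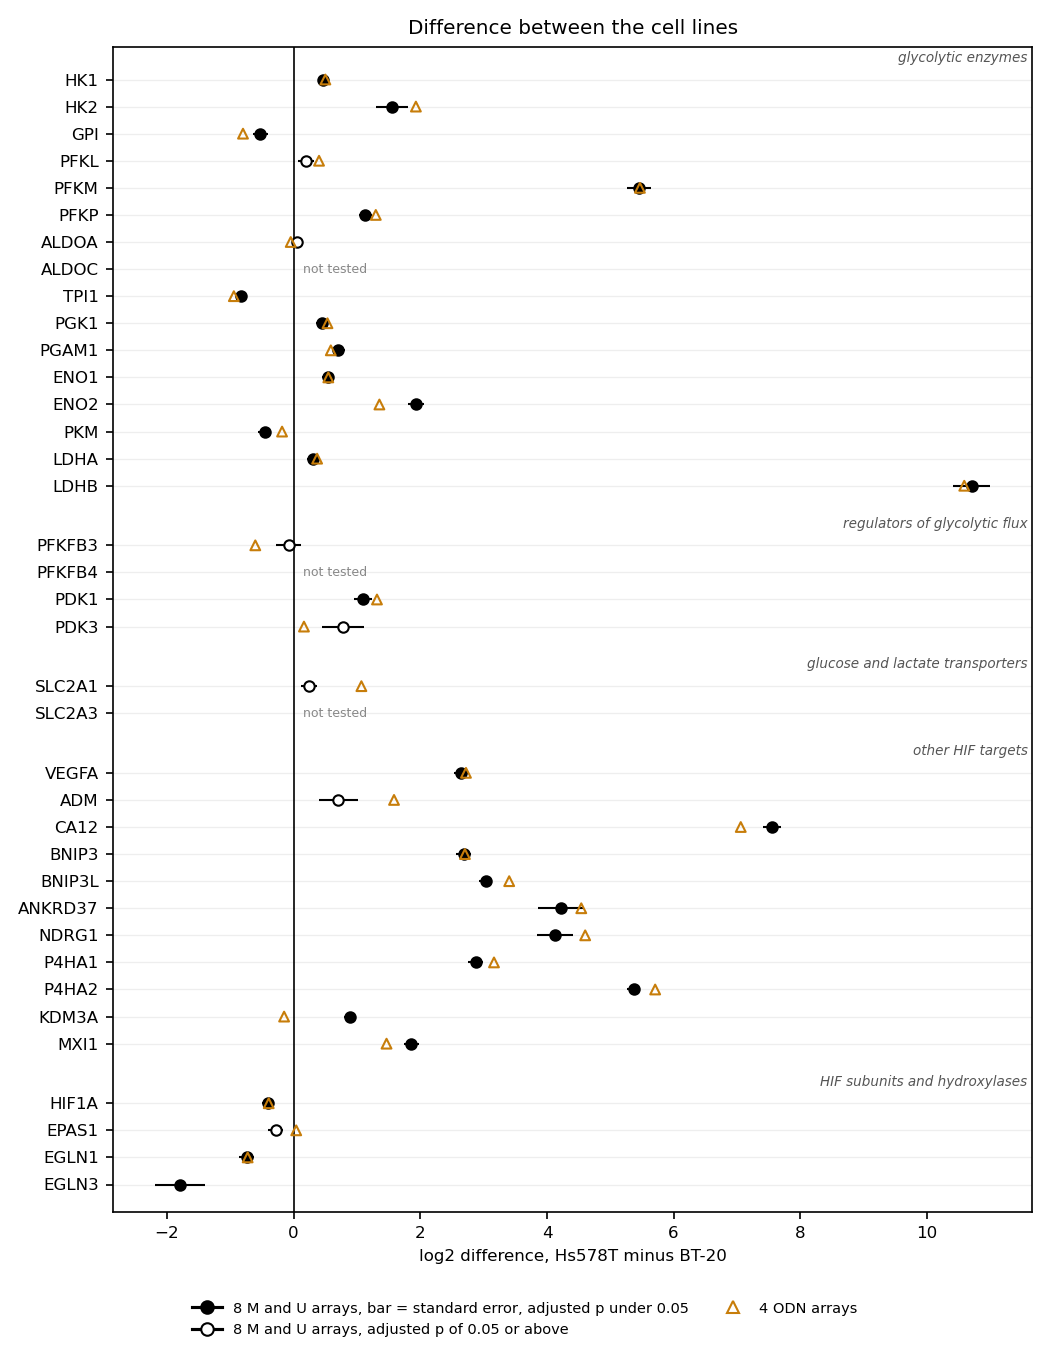
Log2 difference between the lines for each member, Hs578T minus BT-20. Circles are the 8 M and U arrays with bars for the standard error, filled where the adjusted p was under 0.05, and open triangles are the 4 ODN arrays. The circles of all 11 other HIF targets tested lie to the right of 0, with CA12 at 7.55 and P4HA2 at 5.37, while the KDM3A triangle lies at -0.15 and the circles of HIF1A, EPAS1, EGLN1 and EGLN3 lie to the left.

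The line differences were compared between sets of arrays. The signs matched those of the 8 M and U arrays at 33 of 34 members in set 1 alone, 33 of 33 in set 2 alone, 30 of 33 in the 4 ODN arrays alone and 34 of 34 in all 12 arrays. Only the ODN arrays are not among the 8, and the labels do not say how separate their cultures were from those of set 2. ALDOA, EPAS1 and KDM3A had the opposite sign in the ODN arrays. The number of members past the threshold was 26 in set 1, 24 in set 2, 29 in the ODN arrays and 31 over all 12, against 72.1%, 68.2%, 72.8% and 79.3% of all genes.

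Related members were compared with each other by their within-array difference, to ask whether members of 1 enzyme step or family differed between the lines by unequal amounts. M and U of a set deviated together, so the arrays of a line are not 4 independent cultures and these p-values are too small. With set means, 2 against 2, the smallest p would be 0.333. Beside this, 74.6% of all genes differed between the lines, and how often other gene pairs differ was not tested. Of 10 pairs tested, 8 differed, each at the smallest p that 4 arrays against 4 allow in an exact two-sided permutation test (p = 0.0286, adjusted p = 0.0357 over the 10). LDHA minus LDHB was 1.19 ± 0.13 in Hs578T and 11.60 ± 0.65 in BT-20 (SD, n = 4). The LDH genes thus differed by unequal amounts, and with values under 5 set to 5 the shift was still -8.30. PFKP minus PFKM shifted by -4.32, and by -2.70 with values under 5 set to 5. LDHB and PFKM entered these pairs only through Hs578T, and EGLN3 entered its pair only through the BT-20 arrays of set 1. ENO2 minus ENO1 shifted by 1.40, P4HA2 minus P4HA1 by 2.49, PFKP minus PFKL by 0.94 and BNIP3L minus BNIP3 by 0.35. HK2 minus HK1 shifted by 1.08, which became -0.57 with the mean of probe sets, and EGLN3 minus EGLN1 shifted by -1.05, which became 0.72 with values under 5 set to 5. PDK3 minus PDK1 (-0.31, exact permutation p = 0.514) and EPAS1 minus HIF1A (0.12, exact permutation p = 0.314) did not pass. Leaving out any 1 Hs578T array lost the HK2 and HK1 pair and the EGLN3 and EGLN1 pair, and the BNIP3L and BNIP3 pair was lost without M of set 1 or U of set 2 of BT-20.

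**Figure D3:**
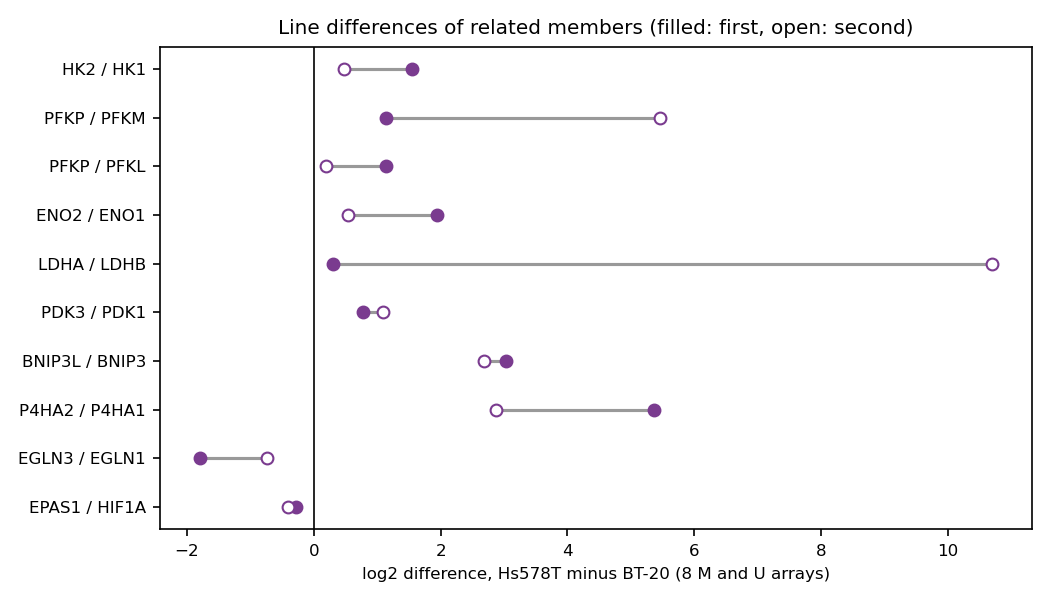
Log2 line difference, Hs578T minus BT-20 in the 8 M and U arrays, of the genes of 10 related pairs, with the first named gene filled and the second open. A long bar means that the genes of a pair differed between the lines by unequal amounts, and the longest is LDHA at 0.30 against LDHB at 10.70.

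Genes of the same pathways outside the 40 were read from lists by function. Of 44 other genes of the HIF pathway that were tested, 25 were higher and 12 lower in Hs578T, with a median of 0.74. Of all genes, 34.4% were higher and 40.2% lower, and the total of 84.1% compares with 74.6% of all genes. Some of the 25, such as IGFBP3, LOX and VEGFC, entered only through Hs578T. A count of the list without such genes was not made. The largest were IGFBP3 at 10.83, the collagen cross-linking oxidase LOX at 9.78, the lymphangiogenic factor VEGFC at 7.44, STC2 at 4.38 and the adenylate kinase AK4 at 4.10, and GPRC5A was lower by a difference of -6.29. AK4 was at 3.84 and 3.86 in BT-20 set 1 and at 6.92 and 6.94 in set 2, and at 9.02, 9.36, 9.60 and 9.98 in Hs578T, so its difference depended on the set. The targets HILPDA (-1.26) and INSIG2 (-1.82) were lower in Hs578T, and are named here after their values were seen. IGFBP3, LOX and VEGFC were under 5 in all BT-20 arrays, so their differences are given as measured and not as folds. The HIF partner ARNT (-0.69, adjusted p = 0.00239) and the asparaginyl hydroxylase HIF1AN (-0.78, adjusted p = 0.00206) were lower in Hs578T, like HIF1A, and VHL differed by -0.19 (adjusted p = 0.115). Of 25 other genes of glycolysis and pyruvate metabolism, 10 were higher and 10 lower, with a median of -0.04. Among them the monocarboxylate transporter SLC16A7 was 6.54 higher, PCK2 2.09 and SLC2A10 2.02 higher, while TALDO1, SLC2A8 and PGM2 had differences of -1.89, -1.79 and -1.58. SLC16A7 was under 5 in all BT-20 arrays. GAPDH differed by -0.16 (adjusted p = 0.233).

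The series was made to compare the methylated with the unmethylated oligonucleotide, and at no member did M differ from U past the threshold. The tests were within Hs578T, within BT-20, over the lines together and of how far the effect differed from line to line. In each, 0 of 34 members passed, and so did 0% of the 10410 genes (limma). At an unadjusted p under 0.05 there were 680, 174, 543 and 258 genes, and 1, 0, 1 and 1 members, each time HK1. A moderated fit with trend and robust prior and a fit with set as a block also gave 0 members. With the lines together 12 of 34 members were above 0, against 47.3% of all genes, and for the difference between lines 6 of 34, against 47.8%.

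In Hs578T, 10 of 34 members had a difference, M minus U, above 0, against 47.4% of all genes. In set 1, HK1 was at 11.00 after M and at 11.47 after U, and in set 2 at 10.95 and 11.44. M lay under U in both sets by nearly the same amount, the mean difference being -0.48 (95% interval -0.77 to -0.20, adjusted p = 0.622). In BT-20 HK1 differed by -0.02 and -0.07 in the sets, and the difference between the lines was -0.43 (adjusted p = 0.999). ENO2 (-0.43) and SLC2A1 (-0.36) followed HK1 in order of p in Hs578T, and both differed by over 0.6 log2 units in set 2 and by about 0.1 in set 1. MXI1 (0.26), KDM3A and PGK1 had the smallest p above 0.

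In BT-20, 20 of 34 members were above 0, against 48.6% of all genes, and so were 10 of 11 other HIF targets, with a median of 0.13. The sets did not share this. In set 1 all 11 were above 0, with a median of 0.34, against 52.1% of all genes above 0. In set 2 it was 5 of 11, with a median of -0.002. KDM3A, BNIP3, BNIP3L, P4HA2 and NDRG1 were above 0 in both sets. NDRG1 had the largest of these differences, at 6.31 after M against 5.46 after U in the first set and at 5.83 against 4.80 in the second, a mean difference of 0.94 (95% interval -0.02 to 1.90, unadjusted p = 0.0542, adjusted p = 1.00 by limma). The value of 4.80 lay under 5. In Hs578T NDRG1 differed by 0.25 in set 1 and by -0.74 in set 2. HK2 in BT-20 differed by 1.23 in set 1 and by -0.31 in set 2. With 2 arrays a group, standard errors of the members ran from 0.12 to 0.56, so that differences under about 1 log2 unit were within reach of the spread at the more variable genes.

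**Figure D4:**
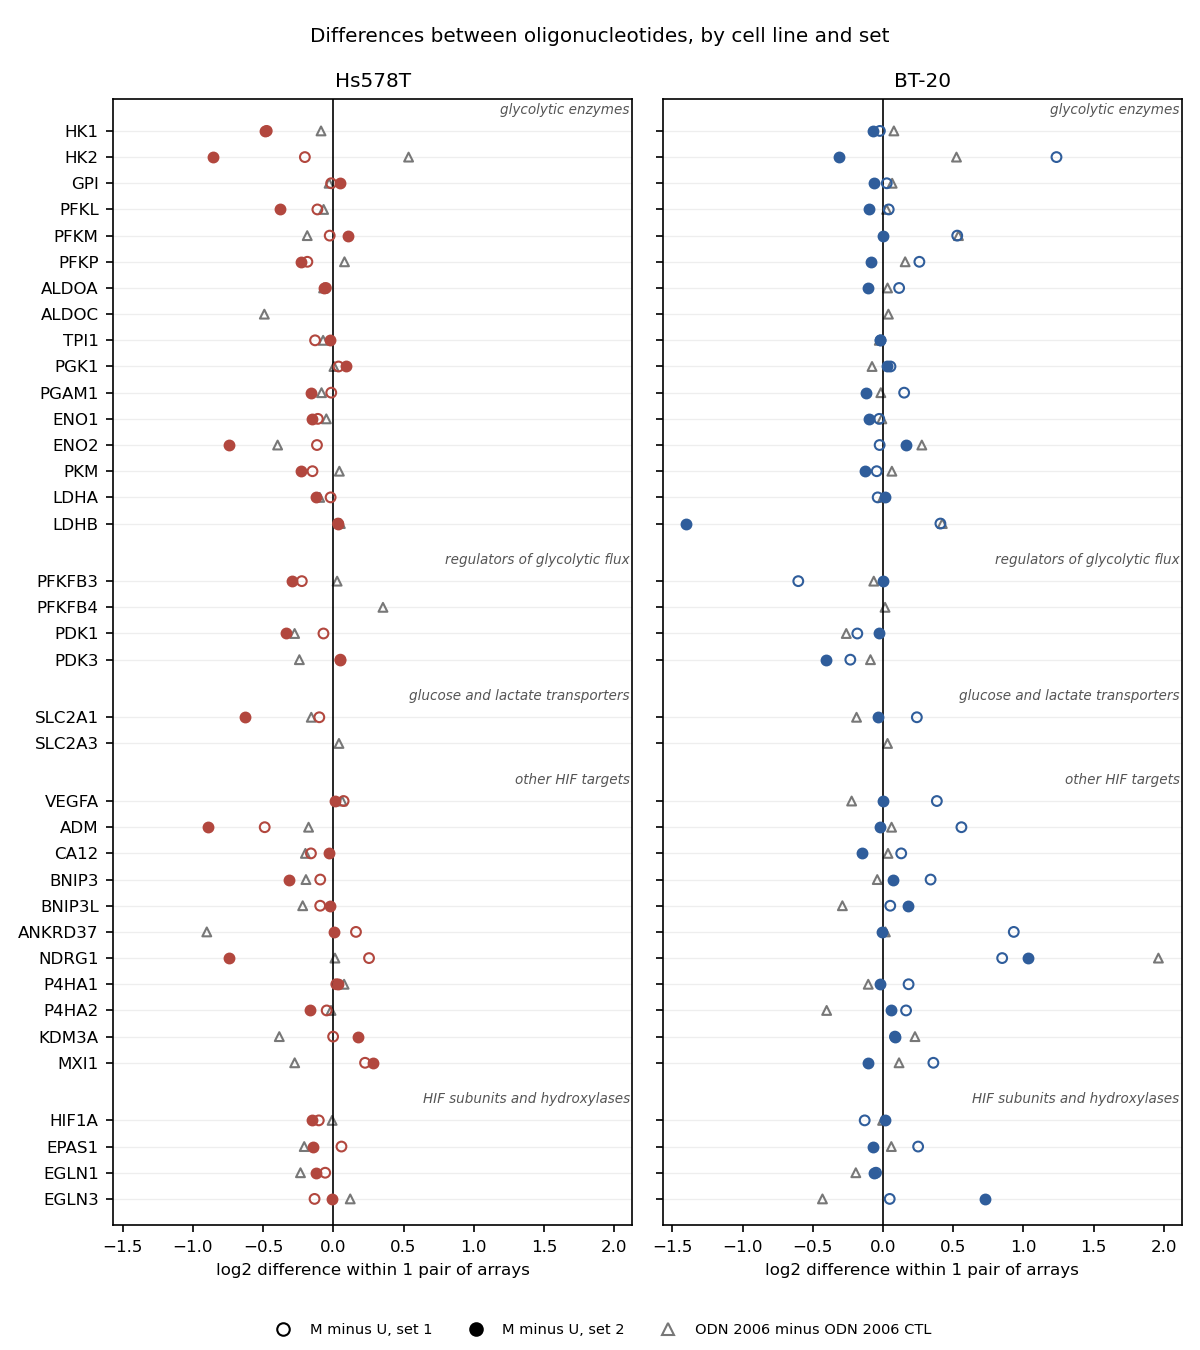
Log2 difference within each pair of arrays, by line. Open circles are M minus U in set 1, filled circles M minus U in set 2, and grey triangles ODN 2006 minus ODN 2006 CTL, which alone are drawn for members that were not tested in the M and U arrays. HK1 in Hs578T lies near -0.5 in both sets, and NDRG1 in BT-20 lies to the right of 0 in all 3 pairs, while most other members scatter around 0.

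ODN 2006, which has CpG, was compared with its GpC control over both lines, with the spread taken from the M and U groups since each ODN group had 1 array. Of 35 members 0 passed, and of 10543 genes 1 passed (0.00948%), while 490 genes and 1 member had an unadjusted p under 0.05. That member was NDRG1. It was at 6.34 with ODN 2006 and 4.38 with the control in BT-20, the latter under 5, and at 9.96 and 9.95 in Hs578T. The mean difference of 0.99 (SE 0.40, unadjusted p = 0.0464, adjusted p = 0.999 by limma) therefore came from BT-20. HK2 was 0.54 higher with ODN 2006 in Hs578T and 0.52 higher in BT-20 (adjusted p = 0.999). Of 11 other HIF targets only NDRG1 was above 0, with a median of -0.08 against -0.06 over all genes, and centring on housekeeping genes moved the median of all genes to 0.08. Among all members 8 of 35 were above 0, against 35.1% of all genes. BNIP3L (-0.25), P4HA2 (-0.21) and PDK1 (-0.27) had the smallest p below 0.

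The ODN arrays were then set against the M and U arrays of set 2, whose array names carry the same date, joining both ODNs and both duplexes in each line. These kinds of oligonucleotide differ in sequence, strands and chemistry, and their cultures may differ as well, which cannot be told apart. In Hs578T 2 of 34 members passed (5.88%), against 9.03% of 10375 genes. PFKFB4 was higher, against 3.87% of genes, and KDM3A lower, against 5.16%. Of the 34, 15 were above 0, against 42.9% of all genes. PFKFB4 entered this test only through the 2 arrays in which it was high, so its call adds nothing to its values.

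PFKFB4 was at 6.98 with ODN 2006 and 6.63 with its control in Hs578T. It was at 4.02 and 4.58 with M and U of set 2, and at 3.74 and 4.28 in set 1. Both ODN arrays stood above all other arrays of the series, as the BT-20 arrays were at 3.40 to 4.24. With values under 5 set to 5, PFKFB4 was at least 3.5-fold higher in the ODN arrays of Hs578T (measured difference 2.51, SE 0.28, adjusted p = 0.00945). In BT-20 the difference was 0.31 (adjusted p = 1.00), and the difference between the lines was 2.20 (adjusted p = 0.0929, or 0.0166 with values under 5 set to 5). PFKFB4 entered this test between the lines, too, only through the Hs578T ODN arrays. With values under 5 set to 5, all other arrays of the test were equal, so neither p adds anything to the values. A further PFKFB4 probe set stayed near 2.25 in all arrays, and with the mean of probe sets PFKFB4 was not tested. KDM3A had the lower values with ODNs that were given above, a difference of -0.71 in Hs578T (SE 0.16, adjusted p = 0.045) and of 0.32 in BT-20 (adjusted p = 1.00). The difference between the lines was -1.03 (adjusted p = 0.146). The KDM3A call was lost without the Hs578T ODN 2006 array (-0.52, adjusted p = 0.149) and in 8 other settings that left out an array, dropped the filter or took the mean of probe sets.

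In BT-20 0 of 34 members and 0% of 10375 genes passed, with 0 members and 534 genes at an unadjusted p under 0.05, and 19 of 34 were above 0, against 49.2% of all genes. SLC2A1 was at 7.75 and 7.94 in the BT-20 ODN arrays and at 8.20 and 8.24 in M and U of set 2 (-0.38), while in Hs578T it was 0.47 higher with ODNs. The difference between the lines was 0.85 (adjusted p = 0.247), and 0 of 34 members passed that test, against 0.202% of all genes higher and 0.0675% lower, 0.27% in all. Of the 34, 18 were above 0, against 42.7%.

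Set 2 was compared with set 1 to show how far the members vary between the replicate sets of a line. Culture and array handling cannot be told apart between the sets. In BT-20 2 of 34 members passed, PDK3 and EGLN3, against 2.5% of 10410 genes, 0.663% higher and 1.83% lower. PDK3 was higher in set 2 by 1.06 (SE 0.16, adjusted p = 0.0283), from the values given above. In Hs578T it was lower in set 2, by a difference of -0.45 that did not pass (adjusted p = 0.2). The difference between the lines was -1.50 (SE 0.22, adjusted p = 0.0332), the single member of 34 past the threshold in that test, against 1.28% of all genes, 0.548% higher and 0.73% lower. In it 22 of 34 were above 0, against 49.1%. The ODN arrays of BT-20, at 7.01 and 7.10, lay with set 2. EGLN3 was lower in BT-20 set 2 by a difference of -1.36 (SE 0.22, adjusted p = 0.0344 by limma), which fell to -0.05 with values under 5 set to 5. EGLN3 entered this test only through the BT-20 arrays of set 1, in which it was high. Its call therefore adds nothing to its values.

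Other members of BT-20 followed without passing. ANKRD37 differed by -1.19 (adjusted p = 0.0735) and ADM by -1.03 (adjusted p = 0.158), and 9 of 34 members had an unadjusted p under 0.05, against 18.8% of all genes. Only 2 of 11 other HIF targets were above 0, against 42.2% of all genes. In Hs578T 0 of 34 members passed, against 0.682% of all genes higher and 2.06% lower, 2.74% in all, with 3 members and 1929 genes at an unadjusted p under 0.05. The 3 were CA12 (-0.41), GPI (-0.31) and PDK3. Outside the members, AK4 was higher in BT-20 set 2 by 3.08 (adjusted p = 0.000875 by limma) and by 0.60 in Hs578T (adjusted p = 0.123), from the values given above. These comparisons and those with the ODN arrays share the set 2 arrays.

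**Figure D5:**
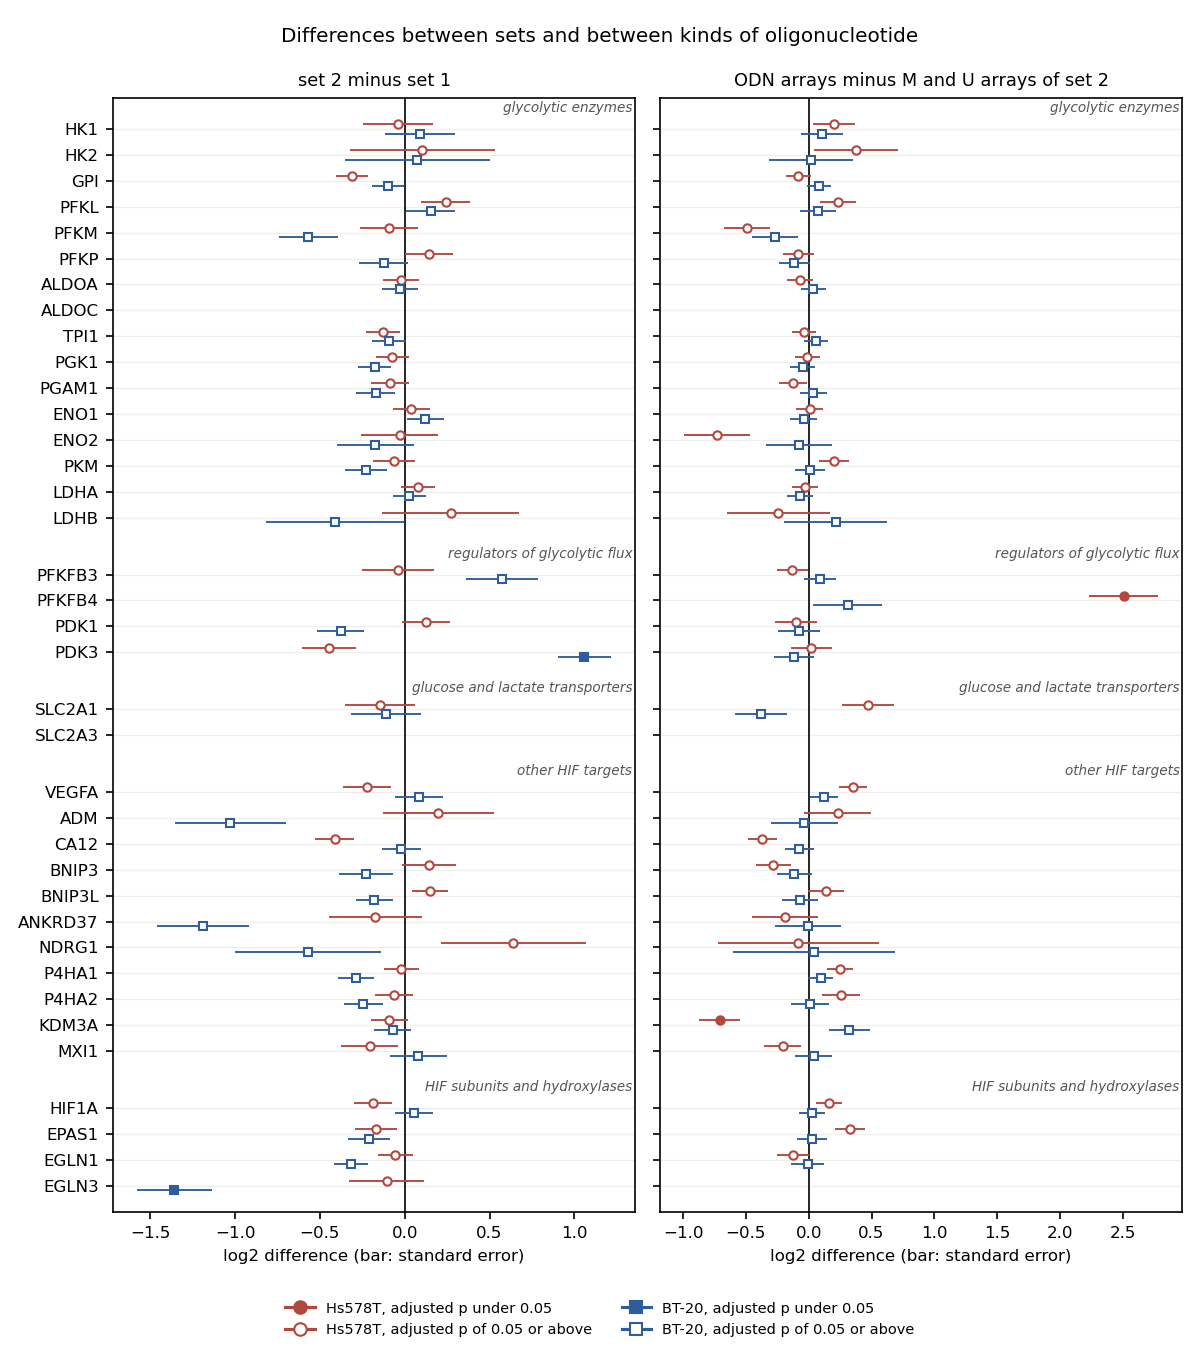
Log2 difference with standard error for set 2 minus set 1 (left) and for the ODN arrays minus the M and U arrays of set 2 (right), Hs578T as red circles and BT-20 as blue squares, filled where the adjusted p was under 0.05. Filled points are PDK3 at 1.06 and EGLN3 at -1.36 in BT-20 on the left, and PFKFB4 at 2.51 and KDM3A at -0.71 in Hs578T on the right. EGLN3 entered only through the BT-20 arrays of set 1 and PFKFB4 only through the Hs578T ODN arrays, where each was high.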

How the data were processed

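RNA was measured on 12 one-colour Affymetrix arrays. The deposited values are log2 expression values, which the authors computed with GCRMA in R 2.4 (submitters' processing notes). GCRMA corrects background by probe sequence, pulls dim probe sets to low values and gives all arrays a like distribution, so a global shift would not show. Whether the arrays were normalized together is not given in the sources used here. Precision is limited by the small number of arrays.

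Of 54675 probe sets, 41097 had 1 gene symbol in the probe table used, and symbols were updated for 41043 by gene ID from RefSeq (GRCh38.p14). Each gene was read from its brightest probe set on average. A gene entered a test when 2 or more of its arrays reached 5. Tests used limma (version 3.58.1, R 4.3.3) on means per group with eBayes and 4 residual degrees of freedom, with Benjamini-Hochberg adjustment over all genes tested and a threshold of 0.05. Single ODN arrays were assumed to vary like the replicated groups. Paralogue pairs were compared by exact permutation. No arrays were identical. The fits were tested on simulated data.

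The members, gene lists and comparisons were chosen with earlier results of these data known. All members could be named. For context genes, up to 6 a list with the largest line difference, and ARNT, VHL, HIF1AN and GAPDH, were named. For comparisons without a call, the 3 members with the smallest p in each direction could be named. The tests of the difference between lines for sets and for kinds of oligonucleotide were added after seeing the data.

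M and U arrays of 1 set deviated together within a line (r = 0.599 in Hs578T and 0.595 in BT-20 over 10410 genes, which are not independent) but little across lines (0.0984 to 0.131). The set numbers come from the titles. Set within line was therefore used as a block in an alternative fit. The line was also fitted on set means, an alternative added after seeing the data. Other alternatives were no filter, a trend with robust prior, the mean of probe sets, housekeeping centring, quantile normalization, values under 5 set to 5, subsets of arrays, and leaving out each array.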

Additional observations from a re-analysis of the deposited data

Results flagged for a closer look

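In 4 of the 68 groups of 4 M and U arrays of a line that were tested, 1 array stood apart from the other 3 by a gap close to the whole range of the group, which chance gives in about 1 of 20 groups. PGAM1 was at 13.435 in the M array of set 2 of Hs578T, with the others at 13.591 to 13.607. KDM3A was at 9.006 in the U array of set 2 of Hs578T, with the others at 9.178 to 9.184. SLC2A1 was at 8.45 in the M array of set 1 of BT-20, above the others at 8.203 to 8.238. HIF1A was at 13.707 in the same array, under the others at 13.817 to 13.837.

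The lines differed in how PDK3 changed from set 1 to set 2. The change in Hs578T minus that in BT-20 was -1.505 by an interaction term in limma (adjusted p = 0.0332), with a fall in the former line and a rise in the latter.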

How the results depend on the processing

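Over the named members, 1197 of 1255 recomputed values kept their direction and their side of the threshold, 40 kept the direction but no longer passed, 3 newly passed and 15 changed sign. The line comparison gave 24 to 31 members past the threshold over all alternatives, against 27. The 0 calls of M against U and of ODN 2006 against its control held under every alternative run.

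In Hs578T, ODN against set 2 M and U arrays gave 1 member without a filter and 0 with the mean of probe sets, against 2, and leaving out 1 array gave 0 to 3. PFKFB4 was not tested without either Hs578T ODN array, since 1 array at 5 or above was left. Set 2 against set 1 gave 1 member (GPI) in Hs578T without a filter, against 0. In BT-20 it gave 0 without a filter, 0 with the mean of probe sets and 1 with values under 5 set to 5, against 2, and 0 to 3 when leaving out 1 array. EGLN3 lost its call without any 1 Hs578T array or U of set 2 of BT-20 (adjusted p 0.0501 to 0.0836) and was not tested without either BT-20 array of set 1. PDK3 lost its call without M or U of set 1 of Hs578T (adjusted p = 0.0765 and 0.0766), M of set 1 of BT-20 (0.138) or U of set 2 of BT-20 (0.146). For the difference between the lines, the ODN comparison gave 1 member (PFKFB4) with values under 5 set to 5, against 0. That setting made all arrays but the Hs578T ODN arrays equal for PFKFB4, so this call adds nothing to its values. The set comparison gave 0 without a filter and 0 with the mean of probe sets, against 1, and 0 to 2 when leaving out 1 array. PDK3 was lost there without any 1 Hs578T array, M of set 1 or U of set 2 of BT-20 (adjusted p 0.0674 to 0.154 by limma). The cause was not tested. Leaving out an array also changes the residual degrees of freedom.

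The sign turned for HK2 between the lines (-0.095) and for HK2 minus HK1 (-0.566) with the mean of probe sets, for KDM3A between the lines in the ODN arrays (-0.149), for EGLN3 minus EGLN1 (0.715) with values under 5 set to 5, and for EPAS1 in the difference between the lines for ODN arrays (-0.042) with the mean of probe sets. When leaving out 1 array, M against U ranged from -0.004 to 0.174 for KDM3A in Hs578T and, in BT-20, from -1.153 to 0.162 for LDHB, -0.739 to 0.138 for PFKFB3 and -0.894 to 0.253 for PDK3. Its difference between the lines ranged from -0.128 to 1.187 for LDHB, -0.203 to 0.943 for PDK3 and -0.026 to 0.286 for MXI1, and PFKFB4 in BT-20 from -0.033 to 0.653 for the ODN comparison.

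With set within line as a block, 30 members passed between the lines instead of 27 (ADM, EPAS1 and PDK3 were gained). The block leaves out the spread between sets, on which a comparison of lines rests, so these gains are no firmer calls. Where the block was run for other comparisons, it changed no call. It was not run for set against set or for ODN arrays against M and U arrays. The calls in those comparisons were not tested with it. On set means, added after seeing the data, 25 members passed. Housekeeping centring moved the median of all genes by -0.17 between the lines, by 0.14 for ODN 2006 against its control and by 0.11 for the ODN arrays in BT-20. Dim probe sets limit LDHB, PFKM, CA12 and PFKFB4 to bounds, bring ANKRD37 from 18.6-fold to 11.2-fold with values under 5 set to 5, and leave EGLN3 without a fold.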
